A study of Mus musculus with 8 samples.

Results

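Wnt pathway genes were followed through 8 RNA-seq libraries of cardiomyocytes from newborn mice. The set holds 39 genes, listed by symbol for their place in the pathway, out of 48440 entries in the count table, and all 39 were found there. It covers 3 Wnt ligands, 2 genes of Wnt secretion, 13 receptors and co-receptors and 3 genes listed as secreted antagonists. It also covers 4 genes of the R-spondin module, 4 transducers, 5 genes of the destruction complex and 5 genes of the nuclear step. The mice were C57BL6/J pups on postnatal day 2, with no treatment or genetic change named in the labels. Each of 4 litters gave 1 male and 1 female library, each from a separate heart, so the groups compared are 4 males against 4 females, and 4 litters of 2 libraries each. Anything else that differed between litters, such as the day of preparation, cannot be told apart from litter.

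Wnt proteins are secreted, lipid-modified ligands that bind Frizzled receptors together with Lrp5 or Lrp6, or with the alternative receptors Ror1, Ror2 and Ryk. Without a signal, a destruction complex of Axin, Apc, Gsk3b and casein kinase 1 marks beta-catenin (Ctnnb1) for breakdown. With a signal, Dishevelled proteins block that complex and beta-catenin works with TCF/LEF factors at target genes such as Axin2. The pathway is known for its stage-dependent roles in heart development and in the growth of the ventricular wall.

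Library totals ran from 14226342 to 24910243 counts. Values below are CPM, counts scaled to a common total, on library sizes adjusted by the trimmed mean of M-values (TMM). The labelled cell type was checked against marker lists. The 12 cardiomyocyte markers summed to 77550 to 102000 CPM per library, the 12 fibroblast markers to 65.23 to 297.5 CPM, the 12 endothelial markers to 24.49 to 216.7 CPM and the 8 macrophage markers to 3.016 to 8.463 CPM. Of the macrophage markers 6 of 8 were at 0 in at least 1 library, while every cardiomyocyte and fibroblast marker was counted in every library. The 9 mural markers summed to 905.2 to 1534 CPM, mostly through Acta2 (343 to 1040 CPM) and Abcc9 (391 to 510 CPM). The 7 erythroid markers summed to 98.63 to 531.9 CPM, with the highest value in the male of litter 3, and the 9 epicardial markers to 15.95 to 24.95 CPM. At 0 in at least 1 library were 2 epicardial markers (Upk1b and Lrrn4). The 6 Schwann markers summed to 28.76 to 34.13 CPM, and 4 of them were at 0 in at least 1 library.

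Levels were compared between genes per length. Per kilobase of annotated exons, Ctnnb1 had the highest level at 87 ± 6.67 CPM per kb (SD, n = 8), with a range of 74.5 to 97.1. Csnk1a1, the casein kinase that primes beta-catenin for Gsk3b, was next at 39.1 ± 2.74 CPM per kb. By this length, neither range overlapped that of the next gene in the order. By the longest transcript the means were closer, at 125 CPM per kb for Ctnnb1 and 101 for Csnk1a1. Ryk, an atypical receptor, followed at 13.5 ± 0.615 CPM per kb and Lgr4, a receptor for R-spondins, at 12.9 ± 2.17. Dvl3, a Dishevelled transducer, had 12.9 ± 1.13 CPM per kb, and Wls, the carrier that brings Wnt ligands to the cell surface, had 12.8 ± 1.03. The ranges of Ryk, Lgr4, Dvl3 and Wls overlapped from each to the next in that order, so their order does not differ beyond their spread.

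By mean level per kb of exons, all 3 ligands of the set were under 1 CPM per kb, as were 10 members of other roles. Wnt5a, a ligand known for beta-catenin-independent signalling, had 0.908 ± 0.146 CPM per kb and Wnt11, a ligand of the same branch, 0.157 ± 0.0839. Wnt2b had 4 counts in all 8 libraries together and was at 0 in 5 of them, where a count of 0 allows up to 0.125 to 0.206 CPM (3 counts, covering counting error only). Among the 8 Frizzled receptors the order per kb was Fzd2 (7.36), Fzd1 (6.2), Fzd6 (4.23), Fzd4 (3.81), Fzd5 (2.84), Fzd8 (1.86), Fzd7 (0.565) and Fzd3 (0.374), in mean CPM per kb. In all, 17 of 39 members reached 5 CPM per kb and 13 were under 1. By the longest transcript in place of all exons, 18 reached 5, Wnt5a (1.01) and Porcn (1.13) were no longer under 1, and Wls moved from rank 6 to rank 3 and Tcf7l2 from rank 21 to rank 15.

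**Figure D1:**
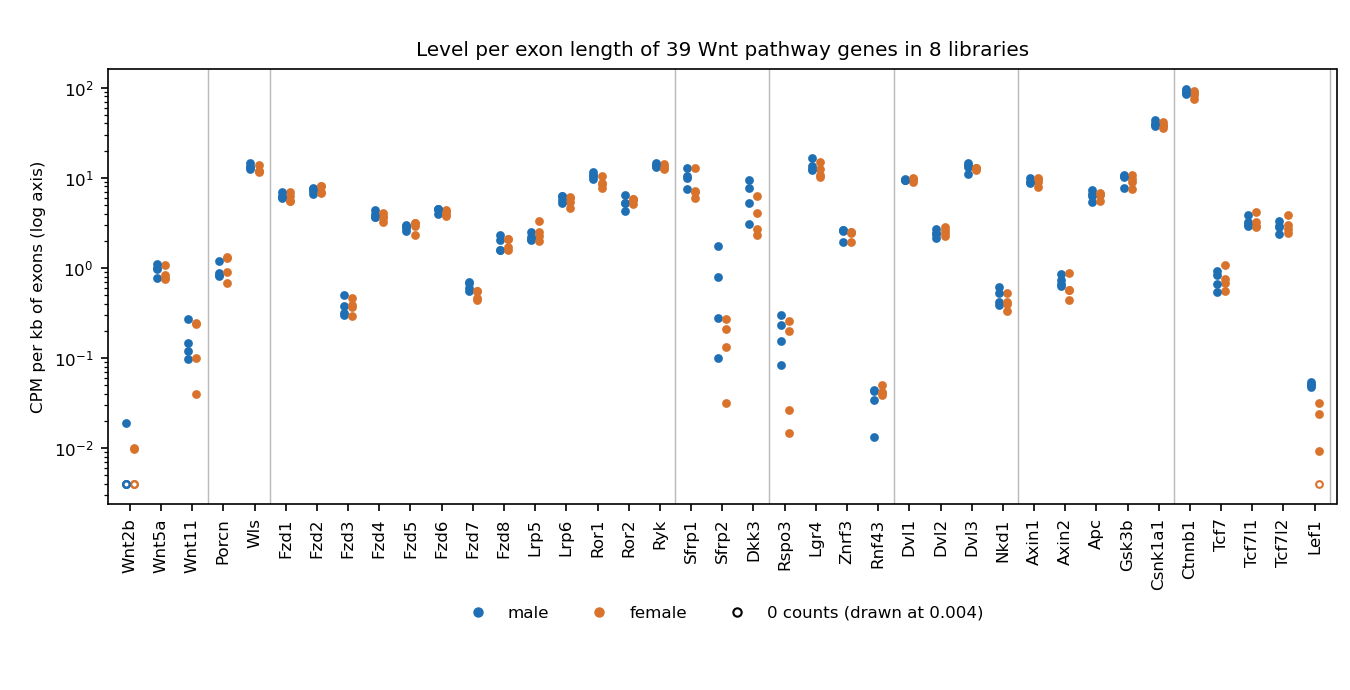
Level of each of the 39 genes in CPM per kilobase of exons (log axis), 1 point per library, blue for male and orange for female, with grey lines between roles and open circles for 0 counts. Ctnnb1 lies highest at 74.5 to 97.1 and Csnk1a1 next at 35.7 to 44, while Wnt2b, Lef1 and Rnf43 lie lowest.

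Litter was tested first across the whole table, in a model with sex, by edgeR's quasi-likelihood F test. Of 36 members with enough counts to test, 11 differed between litters at an adjusted p under 0.05, which is 30.6% beside 32.1% of all 13771 genes tested, so the share of members called was close to the background. They were the receptors Fzd8, Lrp5 and Lrp6, the antagonists Sfrp1 and Sfrp2, Lgr4 and Znrf3 of the R-spondin module, Apc and Gsk3b of the destruction complex, and the nuclear factors Tcf7l1 and Tcf7l2. The median range between the highest and the lowest litter was 0.37 on the log2 scale for the members and 0.37 for all genes tested. By role, litter passed for 3 of 13 receptors, 2 of 3 antagonists, 2 of 3 tested genes of the R-spondin module, 2 of 5 genes of the destruction complex and 2 of 4 tested nuclear genes. It passed for 0 of 2 tested ligands, 0 of 2 secretion genes and 0 of 4 transducers.

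**Figure D2:**
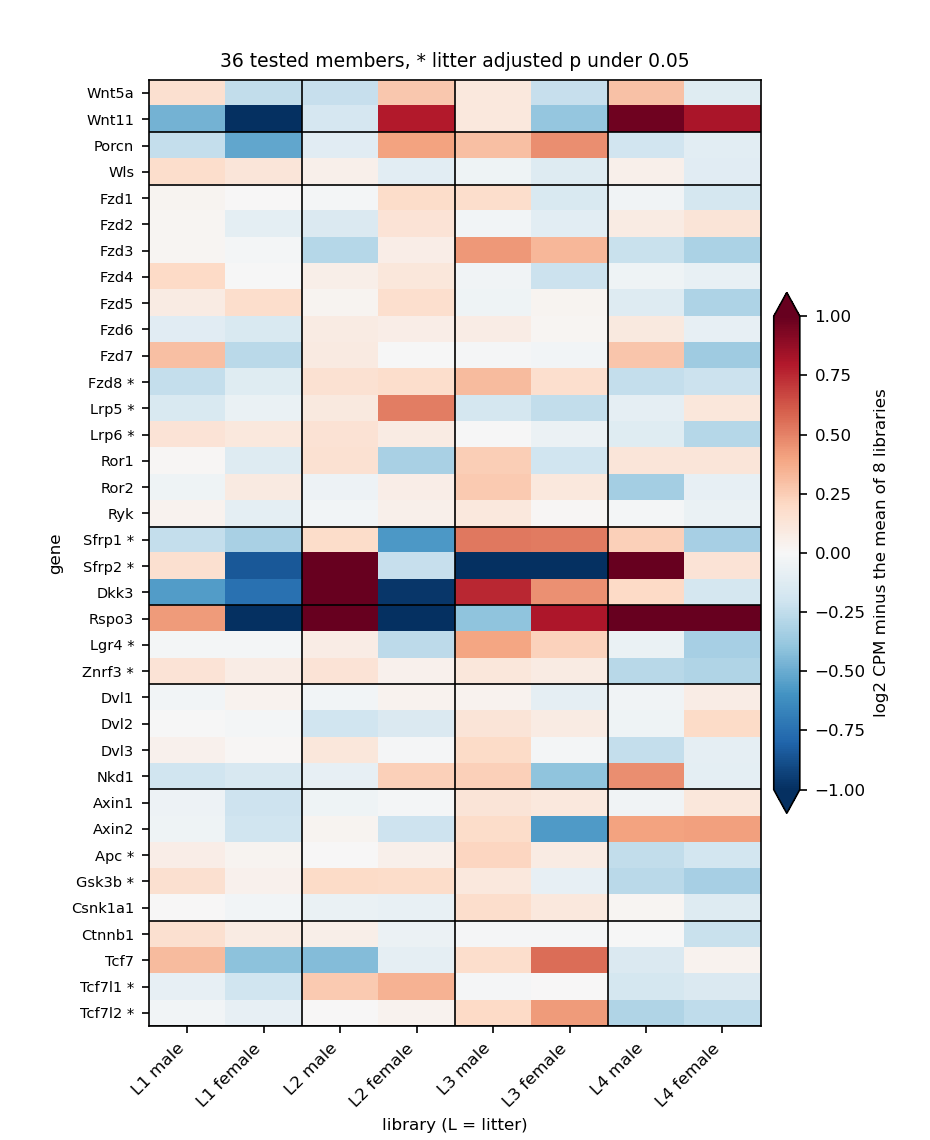
Deviation of each tested member from its own mean over 8 libraries, in log2 CPM, with libraries ordered by litter and colours ending at -1 and 1. Stars mark the 11 members that differed between litters. Tcf7l2, Apc and Lgr4 lie above their own mean (red) in litter 3 and below it (blue) in litter 4. The colour is faint for Apc in the litter 3 female and for Lgr4 in the litter 4 male.

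Sfrp2, a secreted Frizzled-related protein made by fibroblasts, had the largest litter range of the 11. It lies on chromosome 3 (chr3:83766321-83774316, plus strand, GRCm38). Its level was 0.602 and 0.288 CPM in the male and female of litter 1, 1.71 and 0.45 in litter 2, 0.217 and 0.0688 in litter 3, and 3.8 and 0.588 in litter 4. Both libraries of litter 3 were below the other 6, at 5 counts in the male and 1 in the female, while the male of litter 4 was the highest with 68 counts. The litter range was 3.82 on the log2 scale (edgeR adjusted p = 0.0012). Against the mean of the other litters, litter 3 was lower (log2 difference -2.80, SE 0.53, adjusted p = 0.00248) and litter 4 higher (2.29, SE 0.33, adjusted p = 0.00345). The litter 3 call was lost without its male (adjusted p = 0.188) and the litter 4 call without its male (difference 1.5, adjusted p = 0.2). Without litter 3 the litter range was 2.13 and the litter 4 difference 1.52. DESeq2 gave Sfrp2 no adjusted p in litter 4, so it was not among the 6 members that DESeq2 called there. The summed level of the 12 fibroblast markers was also lowest in litter 3, at 80.87 and 65.23 CPM in the male and female against 150 to 297.5 CPM in the other 6 libraries. The sums were highest in litter 2 (297.5 and 203.1 CPM) and not in litter 4 (280.5 and 150 CPM), where Sfrp2 was highest. Of these 12 markers, 10 were lower in litter 3 and 8 were higher in litter 4, and their part in the Sfrp2 result was not tested. In such bulk libraries, fewer cells of a type and less RNA per cell cannot be told apart. Sequence windows shared with a gene on the opposite strand (Gm26771) made up 7.98% of Sfrp2, so some of these counts are uncertain.

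Sfrp1, another secreted Frizzled-related antagonist (chr8:23411502-23449632, plus strand), went the other way in litter 3. Its level was 32.6 and 30.9 CPM in the male and female of litter 1, 43.9 and 25.8 in litter 2, 55.6 and 55.4 in litter 3, and 45.4 and 30.6 in litter 4. Litter 3 stood above the other 6 libraries in both sexes. The litter 3 difference was 0.69 on the log2 scale (SE 0.12, adjusted p = 0.00152), and it stayed past the threshold without any 1 library, at 0.46 (adjusted p = 0.0494) without the female of litter 3. Over all litters the test (range 0.80, adjusted p = 0.00635) lost its call without the female of litter 3 (0.081) or without both libraries of that litter (range 0.23, adjusted p = 0.426).

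Dkk3, a secreted glycoprotein of the Dickkopf family, had 10.4 and 9.09 CPM in the male and female of litter 1, 31.6 and 7.78 in litter 2, 25.8 and 21 in litter 3, and 17.5 and 13.5 in litter 4. The male of litter 2 stood highest and the female of the same litter lowest. Over all litters the test missed the threshold (range 1.25, adjusted p = 0.0525). It passed with library size alone, with the size factors of DESeq2 or with no filter, and in some fits that left out 1 library. Litter 1 was lower by -0.94 (SE 0.28, adjusted p = 0.0443) and litter 3 higher by 0.73 (SE 0.25, adjusted p = 0.0484). The litter 1 call was lost without the male or female of litter 1 (0.455 and 0.0786), the female of litter 3 (0.0597), the female of litter 4 (0.0914), without litter 3 as a whole (0.115), or with DESeq2 (0.26). The litter 3 call was lost without the male or female of litter 3 (0.062 and 0.382), the male of litter 1 (0.0899), the male of litter 4 (0.0928), with DESeq2 (0.274), or with a filter at a mean of 50 counts (0.0535). The litter 1 difference was -0.58 without the male of litter 1 and -0.58 without the male of litter 2, and the litter 3 difference was 0.46 without the female of litter 3 and 1.1 without the male of litter 2. A list of 6 atrial muscle markers, added after these values were seen, summed to 385.6 and 301 CPM in the male and female of litter 1, 833.6 and 210.4 in litter 2, 1313 and 1611 in litter 3, and 416.3 and 401.2 in litter 4. Most of the litter 3 sums were Nppa (1180 and 1510 CPM). Sln, Myl7, Myl4, Bmp10 and Nr2f2 were each highest in the male of litter 2 (15.9, 152, 160, 26.2 and 4.24 CPM). The part of these markers in the Dkk3 values was not tested.

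Lgr4, the receptor through which R-spondins sustain Frizzled at the cell surface, lies at chr2:109917647-110014257 on the plus strand. It had 74 and 73.9 CPM in the male and female of litter 1, 78.8 and 62.6 in litter 2, 98.6 and 88.2 in litter 3, and 71.5 and 59.6 in litter 4. The litter 3 values did not overlap the others. Litter 3 was higher by 0.42 on the log2 scale (SE 0.07, adjusted p = 0.0012), past the threshold without any 1 library. Litter 4 was lower by -0.27 (SE 0.07, adjusted p = 0.0391). That litter 4 call was lost without the male or female of litter 4 (0.12 and 0.256), the female of litter 1 (0.101), the male of litter 2 (0.0663), the male or female of litter 3 (0.0513 and 0.0515), or all of litter 3 (difference -0.14, adjusted p = 0.245).

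Znrf3, a ubiquitin ligase that removes Frizzled from the surface and is held back by R-spondin with Lgr receptors (chr11:5276324-5444847, minus strand), was low in litter 4. It had 20.6 and 19.7 CPM in the male and female of litter 1, 20.5 and 19.2 in litter 2, 20.3 and 19.8 in litter 3, and 15.4 and 15.2 in litter 4. Both libraries of litter 4 were below the other 6, which lay within 19.2 to 20.6. Litter 4 was lower by -0.39 (SE 0.08, adjusted p = 0.0149), a call lost without its male or its female (0.115 and 0.088). The test of all litters (range 0.40, adjusted p = 0.021) lost its call without the male or female of litter 4 (0.132 and 0.0978), the male or female of litter 1 (0.0544 for each), or with DESeq2 (0.0955). Rspo3, the R-spondin of the set, had 0.045 to 0.915 CPM and passed neither test.

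In the destruction complex, Gsk3b, the kinase that marks beta-catenin for breakdown (chr16:38089001-38246084, plus strand), had 103 and 95.5 CPM in the male and female of litter 1, 106 and 105 in litter 2, 99.4 and 87.2 in litter 3, and 76.5 and 73.5 in litter 4. The litter 4 values were the lowest, with no overlap. Litter 4 was lower by -0.40 (SE 0.06, adjusted p = 0.00429), past the threshold without any 1 library, and the test of all litters also kept its call in each of those fits. Litter 2 was higher by 0.25 (SE 0.06, adjusted p = 0.0368), a call lost in 6 of the 8 fits that left out 1 library. Without the female or male of litter 2 the adjusted p was 0.408 and 0.114, without those of litter 1 it was 0.109 and 0.0862, and it was 0.0677 without the litter 3 female and 0.0515 without the litter 4 male.

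Apc, the scaffold on which beta-catenin is phosphorylated (chr18:34220924-34322552, plus strand), had 107 and 104 CPM in the male and female of litter 1, 102 and 106 in litter 2, 118 and 108 in litter 3, and 86 and 89.8 in litter 4. The litter 3 pair was above and the litter 4 pair below the rest. Litter 4 was lower by -0.29 (SE 0.06, adjusted p = 0.0158), and the call was lost without its male or female (0.146 and 0.0594). Litter 3 was higher by 0.20 (SE 0.06, adjusted p = 0.0318). The difference fell to 0.12 when the litter 3 male was left out, and the call was lost without the male or female of litter 3 (0.39 and 0.0596), the male or female of litter 1 (0.0681 and 0.0824), the male of litter 2 (0.0601) or the male of litter 4 (0.0551). Over all litters the call (adjusted p = 0.0169) was lost without the male of litter 4 (0.108) or without litter 3 (0.0539).

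Csnk1a1 had 411 and 402 CPM in the male and female of litter 1, 391 and 389 in litter 2, 462 and 441 in litter 3, and 416 and 375 in litter 4. The litter 3 pair was the highest. Its litter 3 difference was 0.19 (SE 0.06, adjusted p = 0.0255), lost without the male or female of litter 3 (0.15 and 0.163) or of litter 1 (0.0792 and 0.0616), and the test of all litters missed the threshold (0.0839). Axin2, a feedback inhibitor that is itself a target of beta-catenin signalling, had 3.49, 3.66, 4.08 and 4.75 CPM in the males of litters 1 to 4 and 3.13, 3.1, 2.41 and 4.79 CPM in the females. The litter 4 pair was the highest, yet its litter 4 difference of 0.53 (SE 0.18, adjusted p = 0.08) missed the threshold, as did the test of all litters (0.15). Axin1, the constitutive scaffold, had 30.2 to 38.1 CPM and passed no litter test.

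Tcf7l2, a TCF factor that carries beta-catenin to its target genes (chr19:55741820-55933654, plus strand), had 24.9 and 23.9 CPM in the male and female of litter 1, 25.5 and 26 in litter 2, 29.2 and 34.1 in litter 3, and 20.6 and 21.3 in litter 4. The libraries of litter 3 were above, and those of litter 4 below, all others. Litter 3 was higher by 0.42 (SE 0.08, adjusted p = 0.00232), lost without its female (0.074), and litter 4 lower by -0.37 (SE 0.08, adjusted p = 0.017), lost without its male or female (0.107 and 0.123) or without litter 3 (0.0563). The test of all litters (adjusted p = 0.00522) kept its call without any 1 library and lost it without litter 3 (range 0.29 in place of 0.59, adjusted p = 0.106).

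Tcf7l1, the TCF factor known mainly as a repressor (chr6:72626378-72789254, minus strand), was high in litter 2. It had 12.1 and 11.1 CPM in the male and female of litter 1, 15.3 and 16.3 in litter 2, 12.7 and 12.8 in litter 3, and 11.3 and 11.5 in litter 4. The litter 2 libraries did not overlap the others, and the difference was 0.41 (SE 0.09, adjusted p = 0.0279). It was lost without the male or female of litter 2 (0.133 and 0.326), the female of litter 1 (0.0797), or with DESeq2 (0.125). The test of all litters (adjusted p = 0.0225) was lost in the same left-out fits (0.0722, 0.167 and 0.0596) and with DESeq2 (0.113). Ctnnb1 itself had 387 to 504 CPM, with the highest 2 values in litter 1, and its litter range of 0.24 missed the threshold (adjusted p = 0.103). Tcf7, the TCF factor first described in T cells, had 1.41 to 2.82 CPM and passed no litter test.

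Among the receptors, Lrp6, a co-receptor of the beta-catenin branch (chr6:134446476-134566965, minus strand), had 85.5 and 83.6 CPM in the male and female of litter 1, 85.6 and 82.1 in litter 2, 77.1 and 74.4 in litter 3, and 71.3 and 63.5 in litter 4. The lowest values were those of litter 4. Litter 4 was lower by -0.27 (SE 0.06, adjusted p = 0.0186), lost without its male or female (0.0601 and 0.176) or the female of litter 1 (0.0607). The test of all litters (adjusted p = 0.0153) was lost without either the litter 1 female (0.0622) or the litter 4 female (0.0851).

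Its paralog Lrp5 (chr19:3584828-3686564, minus strand) had 20.5 and 21.7 CPM in the male and female of litter 1, 24.2 and 32.4 in litter 2, 20 and 19.1 in litter 3, and 21.3 and 24.6 in litter 4. The female of litter 2 stood above the rest, and the male of that litter overlapped litter 4. The litter 2 difference of 0.41 (SE 0.09, adjusted p = 0.027) was lost without the litter 2 female (difference 0.23, adjusted p = 0.498) or the litter 1 female (0.0685), or without litter 3 (0.0598). Over all litters the call (adjusted p = 0.0197) was lost without the female of litter 2 (range 0.34 in place of 0.51, adjusted p = 0.179).

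Fzd8 (chr18:9212163-9218136, plus strand) had 9.35 and 10.1 CPM in the male and female of litter 1, 12.2 and 12.4 in litter 2, 13.7 and 12.4 in litter 3, and 9.33 and 9.49 in litter 4. Litters 2 and 3 lay above litters 1 and 4 without overlap. The range was 0.48 (adjusted p = 0.0234), and the call was lost without the male or female of litter 4 (0.058 and 0.0505), the male of litter 1 (0.0743), the male of litter 3 (0.0763), without litter 3 (0.0883), or with DESeq2 (0.102). Litter 3 was higher by 0.33 (SE 0.10, adjusted p = 0.03), lost without its male or female (0.344 and 0.0683), without the male of litter 1 (0.0797), 2 (0.0507) or 4 (0.0517), or with DESeq2 (0.129).

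Fzd3, a Frizzled known for planar polarity, had 6.38 and 5.92 CPM in litter 3 against 3.78 to 4.95 in the other 6 libraries. Its litter 3 difference of 0.52 (SE 0.16, adjusted p = 0.027) was lost without the male or female of litter 3 (0.252 and 0.0883), the female of litter 1 (0.0533), the male of litter 2 (0.0556), or with DESeq2 (0.11). The other receptors passed no litter test: Fzd1, Fzd2 and Fzd4 had 21.9 to 29.6 CPM, Fzd5 and Fzd6 15.8 to 22, Fzd7 1.97 to 3.13, Ror2 18.2 to 27.5 and Ryk 57.3 to 65.8 CPM.

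Of the secretion genes, Wls had 127 and 122 CPM in the male and female of litter 1, 116 and 104 in litter 2, 109 and 103 in litter 3, and 117 and 104 in litter 4. The litter 1 pair was the highest, with a difference of 0.20 (SE 0.06, adjusted p = 0.0411). The call was lost without the male or female of litter 1 (0.21 and 0.476), the male or female of litter 2 (0.054 and 0.0808), the male of litter 3 (0.0706), the female of litter 4 (0.0642), all of litter 3 (0.118), or with DESeq2 (0.0558). Porcn, the enzyme that attaches the lipid to Wnt ligands, had 2.02 to 3.99 CPM and no call. Among the ligands, Wnt5a had 5.92 to 8.6 CPM, and Wnt11 had 0.165 to 1.12 CPM with its 2 litter 1 libraries the lowest and its 2 litter 4 libraries the highest, at an adjusted p of 0.0643 over litters. No transducer passed: Dvl1 had 44.9 to 50.1 CPM with a litter range of 0.04 (adjusted p = 0.973), Dvl2 13.6 to 17.8, Dvl3 69.8 to 94 and Nkd1, a Dishevelled-binding inhibitor, 1.51 to 2.79 CPM.

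**Figure D3:**
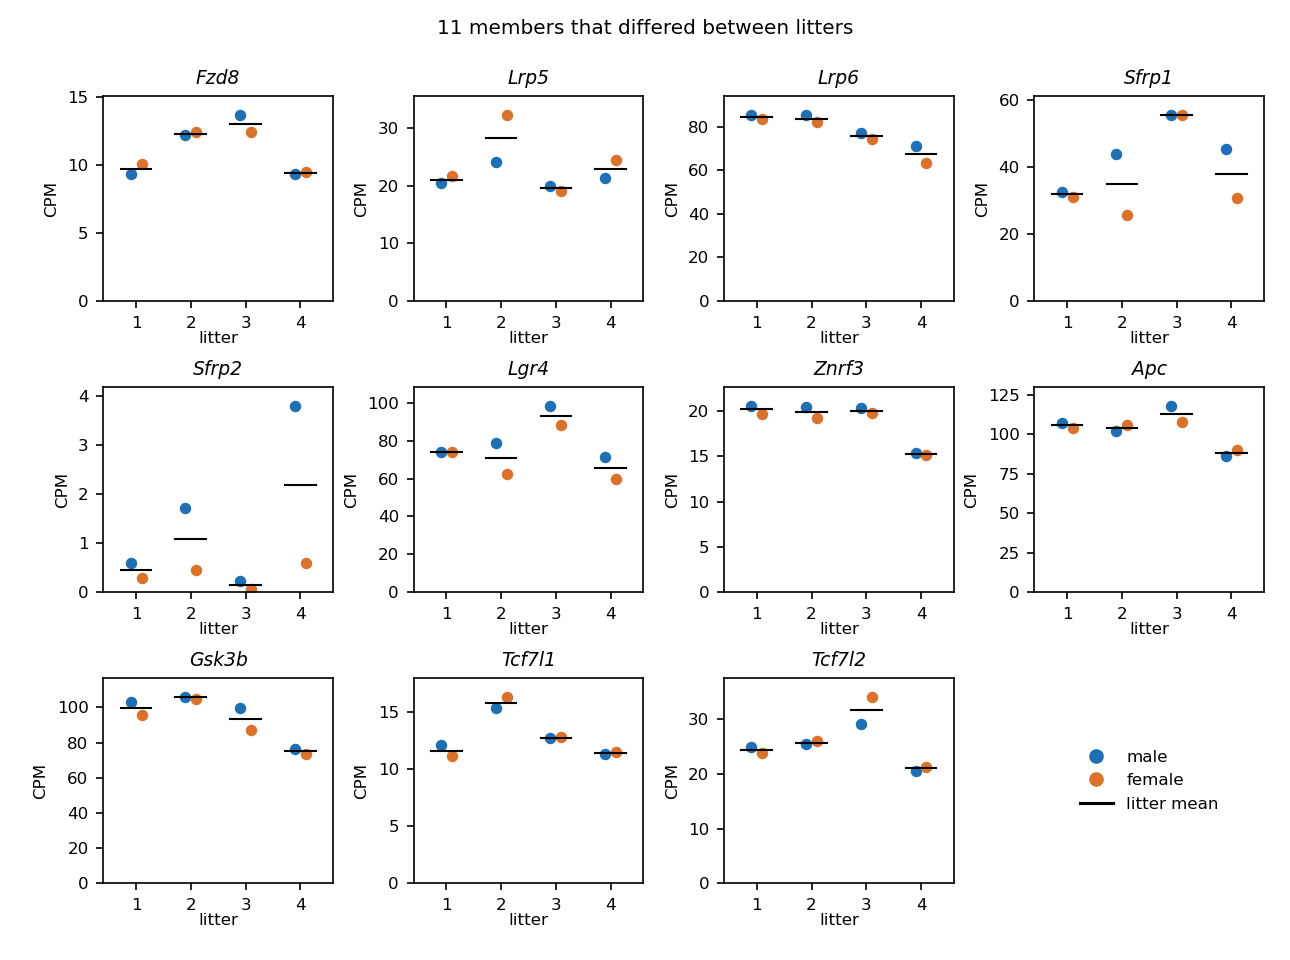
CPM of the 11 members that differed between litters, 1 point per library (blue male, orange female) and a line at the mean of the 2 libraries of a litter, on axes that start at 0. Znrf3 lies at 15.2 to 15.4 in litter 4 and at 19.2 to 20.6 elsewhere, and Sfrp1 at 55.4 to 55.6 in litter 3.

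Counted by litter, members were called higher or lower in different numbers. Each litter was set against the mean of the other 3, and these 4 comparisons share libraries. In litter 3, 8 members were higher and 1 lower, 9 of 36 in all, beside 28.3% of all genes (13.6% higher and 14.8% lower). Cell type markers moved in that litter too: 7 of 12 cardiomyocyte, 10 of 12 fibroblast, 9 of 12 endothelial and 5 of 9 mural markers were lower. Of 6 tested erythroid markers, 2 were higher and 0 lower. Of 8 tested epicardial markers, 1 was higher and 3 lower, and of 6 atrial markers 1 was higher and 1 lower. The cardiomyocyte markers summed to 78950 and 77550 CPM in its male and female against 88360 to 102000 in the other 6 libraries. The mural markers summed to 929.3 and 905.2 CPM against 1342 to 1534. Most of that mural difference was Acta2, at 369 and 343 CPM against 804 to 1040. The part of these cell type markers in the members' litter 3 differences was not tested. In litter 4, 1 member was higher and 6 lower, beside 10.5% of all genes (4.71% higher and 5.80% lower). In litter 2, 3 were higher and 0 lower, beside 4.18% of all genes (3.30% and 0.879%), and in litter 1, Wls was higher and Dkk3 lower, beside 13.3% of all genes (7.86% and 5.41%). In litter 2, 12 of 12 endothelial, 9 of 12 fibroblast and 4 of 9 mural markers were higher, and the endothelial markers summed to 121.9 and 216.7 CPM in its male and female against 24.49 to 88.92 in the other 6 libraries. In litter 4, 5 of 12 cardiomyocyte, 8 of 12 fibroblast and 3 of 9 mural markers were higher, and 2, 0 and 1 were lower. In litter 1, 3 of 12 cardiomyocyte, 4 of 12 fibroblast and 1 of 9 mural markers were higher, and 0, 0 and 2 were lower. The part of these markers in the members' differences was not tested. The median log2 fold change of the members was 0.03 in litter 3 and -0.07 in litter 4, with all genes at 0.00 and 0.01. With library sizes alone in place of TMM, the split of all genes called changed from 1871 higher and 2032 lower to 2419 and 1698 in litter 3, and from 648 and 799 to 262 and 1501 in litter 4. The members then split as 9 higher and 1 lower in litter 3 and as 1 higher and 11 lower in litter 4.

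Lgr4, Apc and Tcf7l2 were called in both litters, higher in litter 3 and lower in litter 4. Sfrp2 was called lower in litter 3 and higher in litter 4. Each of these comparisons holds the other litter in its reference, and the share of all genes called in both was not taken. Both libraries of litter 3 lay above the other 6 for 7 of 36 members, beside 15.1% of all genes, and below for 2, beside 16.4%. Both libraries of litter 4 lay below the other 6 for 8 members (Fzd5, Lrp6, Ror2, Znrf3, Dvl3, Apc, Gsk3b and Tcf7l2), beside 8.80% of all genes, and above for 2 (Wnt11 and Axin2), beside 8.23%. The libraries of litter 1 lay above the other 6 for 2 members (8.89% of all genes) and below for 4 (8.67%), and those of litter 2 above for 2 (4.79%) and below for 1 (3.60%).

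**Figure D4:**
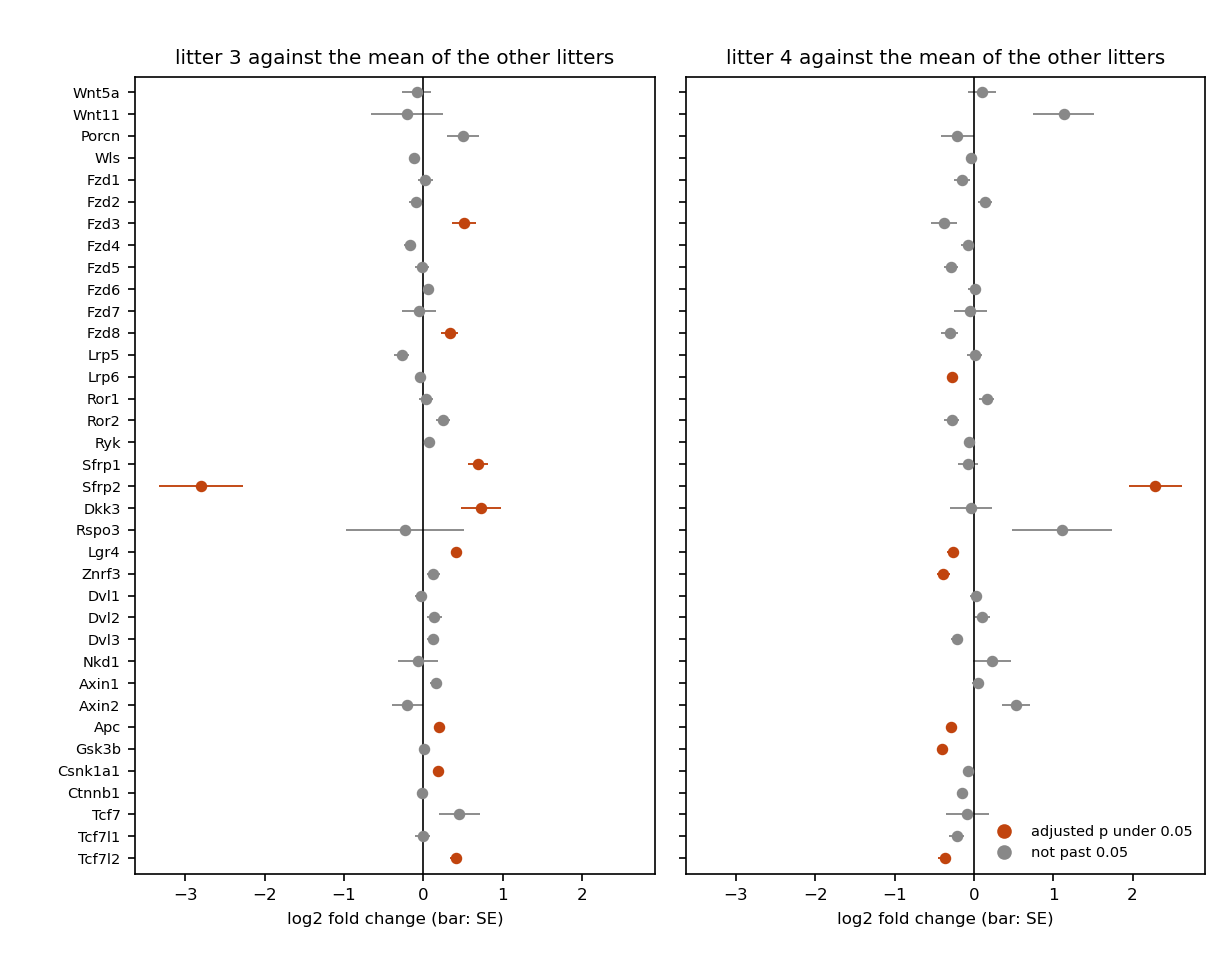
Log2 fold change of the 36 tested members in litter 3 (left) and litter 4 (right), each against the mean of the other 3 litters, with bars of 1 SE and the members past an adjusted p of 0.05 in orange. Sfrp2 lies at -2.80 on the left and 2.29 on the right, and Tcf7l2 at 0.42 and -0.37.

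Start-site sequences are shown for Lgr4, Gsk3b and Tcf7l2, each called lower in litter 4, and for Sfrp2, called higher there. The Lgr4 values of litter 4 (71.5 and 59.6 CPM) overlapped those of another litter (62.6 CPM in its female). That Lgr4 call was lost in 6 of the fits that left out a library, so a shared fall was not shown for Lgr4. RefSeq windows (GRCm38.p6) of 300 bases, 250 before to 50 after an annotated start, were matched for 24 of 39 members by symbol. All 4 are on the plus strand, 5′ to 3′, with capitals at each match to a short word. The words, searched on both strands, were the CCAAT box, the TATAAA box, the GC box written as GGGCGG, and the TCF core in its forms ending in A, written as CTTTGAA, and ending in T, written as CTTTGAT. The windows are chr2:109917397-109917696 for Lgr4, chr16:38088751-38089050 for Gsk3b, chr19:55741560-55741859 for the first start of Tcf7l2 and chr3:83766071-83766370 for Sfrp2.
Lgr4: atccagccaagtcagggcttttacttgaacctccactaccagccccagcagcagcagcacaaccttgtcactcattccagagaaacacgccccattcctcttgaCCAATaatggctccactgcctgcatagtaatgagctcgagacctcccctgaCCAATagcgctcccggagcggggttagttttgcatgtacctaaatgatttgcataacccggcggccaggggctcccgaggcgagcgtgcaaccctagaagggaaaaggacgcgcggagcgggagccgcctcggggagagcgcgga
Gsk3b: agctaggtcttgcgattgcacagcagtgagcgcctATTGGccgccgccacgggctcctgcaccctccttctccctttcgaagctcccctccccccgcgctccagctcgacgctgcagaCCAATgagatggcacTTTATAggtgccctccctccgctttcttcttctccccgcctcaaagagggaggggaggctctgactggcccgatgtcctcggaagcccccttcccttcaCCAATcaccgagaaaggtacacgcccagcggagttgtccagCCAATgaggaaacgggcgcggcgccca
Tcf7l2: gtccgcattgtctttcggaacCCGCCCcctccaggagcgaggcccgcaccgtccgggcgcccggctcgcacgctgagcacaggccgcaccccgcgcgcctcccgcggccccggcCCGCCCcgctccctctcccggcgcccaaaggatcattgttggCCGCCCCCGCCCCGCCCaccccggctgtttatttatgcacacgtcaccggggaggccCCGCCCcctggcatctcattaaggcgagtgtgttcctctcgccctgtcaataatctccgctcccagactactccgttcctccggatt
Sfrp2: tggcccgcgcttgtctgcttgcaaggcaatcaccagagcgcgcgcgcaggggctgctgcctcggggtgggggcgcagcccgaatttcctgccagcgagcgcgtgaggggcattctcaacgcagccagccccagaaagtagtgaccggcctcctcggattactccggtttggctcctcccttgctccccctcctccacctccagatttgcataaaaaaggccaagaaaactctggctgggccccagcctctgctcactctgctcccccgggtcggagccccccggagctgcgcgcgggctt
Lgr4 holds 2 CCAAT words, Gsk3b 4 CCAAT words and 1 TATAAA, and Tcf7l2 6 GGGCGG words on the minus strand, of which 2 overlap, while the Sfrp2 window holds none of the 5 words. Over the 32 windows of the 24 members, 10 held CCAAT (37.4% of all 32851 windows did), 23 held GGGCGG (35.7%) and 8 held TATAAA (13.6%). A TCF core word was found in 1 member window, the first start of Wnt11, beside 8.65% of all windows. A match is a match of letters only, and windows without one say nothing of the factors.

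Males and females were compared next. No member passed an adjusted p of 0.05 in the edgeR test without a litter term, beside 0.0436% of all genes (6 genes, with 0.0363% of all genes higher and 0.00726% lower in males), and DESeq2 also called 0. At an unadjusted p under 0.05, 2 of 36 members passed (Ror1 and Sfrp2), beside 2.22% of all genes. With litter as a block, Sfrp2 passed as higher in males, 1 of 36 members beside 0.211% of all genes (0.152% higher and 0.0581% lower), and 6 of 36 (Ror1, Wls, Sfrp1, Sfrp2, Dkk3 and Lgr4) had an unadjusted p under 0.05, beside 11.6%. The male value was above the female value in all 4 litters for 11 of 36 members, beside 10.9% of all genes, and below it in all 4 for 0, beside 9.32%. Those 11 were Fzd6, Fzd7, Lrp6, Wls, Sfrp1, Sfrp2, Dkk3, Lgr4, Znrf3, Gsk3b and Csnk1a1. The median log2 difference of the members was 0.06, with all genes at 0.00, and 24 of 36 were positive. For 0 of 36 members were all 4 males clear of all 4 females, beside 2.07% of all genes.

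Sfrp2 averaged 1.58 ± 1.61 CPM over the 4 males and 0.349 ± 0.223 CPM over the 4 females (mean ± SD). The per-library values given above overlap between the sexes, since the male of litter 3 lay below 3 of the females. Within litters the male was higher by 1.01, 1.87 and 2.65 on the log2 scale in litters 1, 2 and 4, and had 5 counts against 1 in litter 3. The difference was 2.06 (SE 0.79, edgeR adjusted p = 1; 1.19 without the male of litter 4) without the block and 2.05 (SE 0.33, adjusted p = 0.0291) with it. With the block the call was lost without litter 2 (0.166) or litter 4 (0.295) and with DESeq2 (0.0971), and without litter 4 the difference was 1.57. The fibroblast markers summed to 221.9, 297.5, 80.87 and 280.5 CPM in the males of litters 1 to 4 and to 162.1, 203.1, 65.23 and 150 CPM in the females, with the male higher in each litter. Of the 12 markers, 7 were higher in the male of every litter, and 5 passed the same blocked test, among them Dcn (log2 difference 1.14, edgeR adjusted p = 0.000315) and Col1a1 (0.78, adjusted p = 0.00196). In the blocked edgeR test, 6 of 12 endothelial markers had an unadjusted p under 0.05, beside 11.6% of all genes, with a list median of -0.68. Of these, Cldn5 was called (-2.21, edgeR adjusted p = 0.0259). At that unadjusted p, 3 of 6 atrial markers (list median 1.01) and 4 of 8 tested epicardial markers (0.47) also passed. The part of all these markers in the Sfrp2 difference was not tested.

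The other genes listed as antagonists, Dkk3 and Sfrp1, had the same sign without passing. Dkk3 averaged 21.3 ± 9.28 CPM in males and 12.8 ± 5.96 CPM in females, and its difference with the block was 0.72 (SE 0.23, adjusted p = 0.3). Its within-litter differences were 0.19, 2.02, 0.30 and 0.38, the largest in litter 2, and without that litter the blocked difference was 0.28. Sfrp1 averaged 44.4 ± 9.41 CPM in males and 35.7 ± 13.3 CPM in females, with a blocked difference of 0.35 (SE 0.11, adjusted p = 0.295) that was 0.20 without litter 2. Without the block the Sfrp1 difference was 0.32, and it was 0.18 without the female of litter 2, 0.60 without the female of litter 3 and 0.20 without the male of litter 3. Ror1, a receptor tyrosine kinase for Wnt5a, had 56.2, 61.8, 66 and 60.3 CPM in the males of litters 1 to 4 and 50.9, 44.5, 48.6 and 60.5 CPM in the females. Its male values were higher in litters 1 to 3 and level in litter 4, with a blocked difference of 0.26 (SE 0.08, adjusted p = 0.295). Lgr4 differed by 0.19 with the block (SE 0.06, adjusted p = 0.307) and Wls by 0.12 (SE 0.05, adjusted p = 0.411). Without the block, Lgr4 differed by 0.19, and by 0.08 without the male of litter 3, 0.30 without the litter 3 female, 0.12 without the litter 2 female and 0.11 without the litter 4 female. Wls differed by 0.12, and by 0.08 without the male and 0.18 without the female of litter 1. The unblocked Dkk3 difference of 0.75 was 0.48 without the litter 2 male. Axin2 differed by 0.24 (SE 0.22) and Ctnnb1 by 0.10 (SE 0.09) without the block.

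**Figure D5:**
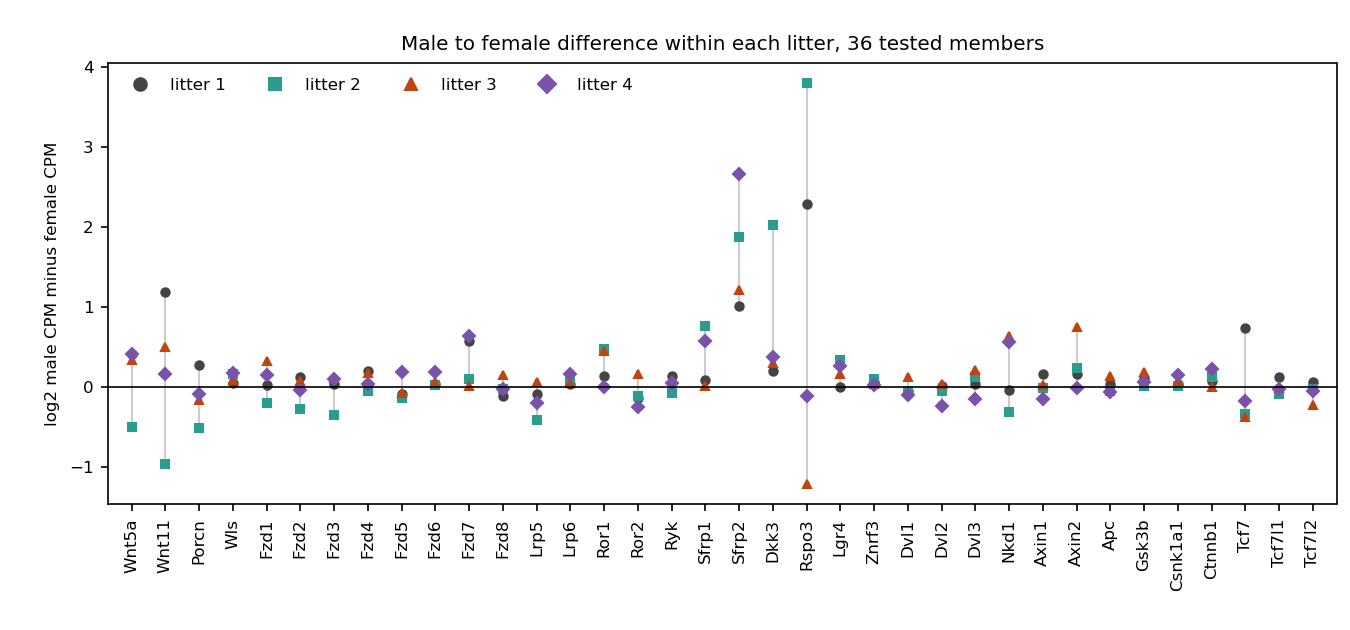
Male minus female within each litter in log2 CPM for the 36 tested members, 1 symbol per litter and grey lines over the range. Sfrp2 is above 0 in all 4 litters, from 1.01 to 2.65, and Rspo3, with few counts, spreads from below 0 to above 3.

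Wnt2b, Rnf43 and Lef1 had too few counts to be tested with the rest. Rnf43, the partner of Znrf3 in removing Frizzled, had 2 to 7 counts in males and 4 to 8 in females. Lef1, a TCF/LEF factor, had 11, 10, 11 and 8 counts in the males of litters 1 to 4. It had 2, 0, 4 and 5 counts in the females, so that the sexes did not overlap. The share of entries with so few counts that also do not overlap was not taken. When all genes were kept, the log2 difference of Lef1 was 1.69 (SE 0.61, edgeR adjusted p = 0.919). It was 1.75 with the litter block (adjusted p = 0.145), a fit chosen after its values were seen.

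The rest of the pathway was taken from a list of 101 further genes, of which 99 were in the table and 66 could be tested. By sex, 0 of 66 were called by edgeR with the block (0.211% of all genes) or without it (0.0436%), and 2 (Sfrp5 and Tle2) had an unadjusted p under 0.05 without it, beside 2.22% of all genes, and 9 with it, beside 11.6%. Litter was called for 26 of 66 (39.4%), beside 32.1% of all genes. The 6 with the smallest adjusted p were Gpc3, Tnks2, Hbp1, Igfbp4, Gpc6 and Amer1. Gpc3, a cell-surface glypican, had 40.1 and 39.6 CPM in the male and female of litter 3 and 27.8 and 28.7 in litter 4, against 17 to 17.9 in litters 1 and 2 (adjusted p = 7.8e-06). Tnks2, a tankyrase that marks Axin for breakdown, had 205 and 192 CPM in litter 3 and 123 to 165 elsewhere (adjusted p = 0.000748). Amer1, a membrane anchor for Apc, had 35.2 and 35.6 CPM in litter 3 and 23.5 to 28.6 elsewhere (adjusted p = 0.0041). Hbp1, a repressor of TCF activity, had 186 and 222 CPM in litter 3 and 112 to 180 elsewhere (adjusted p = 0.000867). Igfbp4, a secreted binding protein, was highest in litter 2 at 21.3 and 20.9 CPM (adjusted p = 0.00122), and Gpc6, another glypican, lowest in litter 3 at 0.564 and 0.344 CPM (adjusted p = 0.0032). Of 16 further Wnt ligands, 14 had too few counts to be tested. The 2 tested, Wnt9a and Wnt5b, had means of 9.74 and 5.23 CPM over exons of 3329 and 2654 bases. Wnt5a had a mean of 7.1 CPM over 7823 bases, so per kb both lay above Wnt5a.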

How the data were processed

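Total RNA of purified cardiomyocytes from 8 mouse hearts was made into stranded single-end libraries, per the labels' protocols. Poly(A) RNA is the labelled molecule, although the named kit takes total RNA. The authors deposited raw read counts per gene symbol, whole numbers for 48440 entries in 8 columns, and 0 columns were left unused. STAR 2.7.3a and the mm10 build are named per the submitters' processing notes. The counting program, its annotation and its use of strand are not given in the sources used here, so reads of genes that overlap on opposite strands are uncertain: shared windows of 100 bases made up 16% of Ctnnb1, 15.2% of Fzd5, 10.3% of Rspo3, 8.99% of Dvl2 and 7.91% of Wnt11.

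Counts were analysed in R 4.3.3 with edgeR 4.0.16: filterByExpr on sex kept 13771 of 24853 counted entries, libraries were scaled by TMM, and quasi-likelihood F tests were adjusted by Benjamini-Hochberg over all genes tested, with a threshold of 0.05. Sex was tested without a litter term (6 residual degrees of freedom), and litter with sex as a term (3). Standard errors are the log2 fold change over the square root of F. Exon lengths and gene positions came from GENCODE M21 (GRCm38), the build named as mm10. Within-litter ratios used a prior count of 0.5. The code was tested on simulated data.

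The labels give the sample number as the litter, which pairs males with females: after removal of sex means, same-litter libraries correlated across genes at 0.367 to 0.696 and other pairs at -0.482 to 0.27. Within each sex, chi-square per degree of freedom between any pair was at least 10.3, so none of these pairs agreed within sampling noise. Alternatives were DESeq2 1.42.0, other scalings, other count filters, each library left out, litter 3 left out and the litter block; the block without each litter and with DESeq2 was added after seeing the data. Members and lists were chosen with earlier results of these data known. Full values are given for members past the threshold by sex (with or without the block) or by litter, values for the 4 highest levels, and 6 other pathway genes by smallest litter p. Members called in 1 litter alone were added after their values were seen.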

Additional observations from a re-analysis of the deposited data

Results flagged for a closer look

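Among the 36 tested members, 72 groups of 4 libraries of a sex were examined, and in 6 of them 1 library stood apart from the other 3 by Dixon's criterion, where chance gives about 3.6. Znrf3 was apart in both libraries of litter 4, with 15.4 CPM in the male against 20.3 to 20.6 in the other males and 15.2 CPM in the female against 19.2 to 19.8 in the other females. Wls was apart in the female of litter 1, with 122 CPM against 103 to 104. Fzd6 was apart in the male of litter 1, with 18.9 CPM against 21.4 to 21.8. Dvl1 was apart in the male of litter 3, with 48.9 CPM against 46.6 to 46.9. Axin1 was apart in the same male, with 38.1 CPM against 33.7 to 34.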

How the results depend on the processing

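No fold change of a single member that was followed through the alternatives changed sign. The fold changes given for Axin2, Ctnnb1 and Lef1 were not followed in this way. The balance of higher and lower calls over all genes in litter 3 did change sign with library size alone. With litter as a replicate block, 1 member was called by sex (Sfrp2) in place of 0, and 1 was called with the block without litter 1 or without litter 3. The block called no other member or further pathway gene. Members called by litter (11) became 18 with library size alone and 6 without litter 3, and 8 to 12 when 1 library was left out. Lgr4 (adjusted p = 0.356), Tcf7l2 (0.106), Sfrp1 (0.426), Apc (0.0539) and Fzd8 (0.0883) lost the call without litter 3. Further pathway genes called by litter (26) became 13 without litter 3, and 15 to 24 with 1 library left out. For litter 1, the 2 members called became 4 with no filter, 0 with DESeq2 and 1 without litter 3 (neither Wls nor Dkk3), and 0 to 3 with 1 library left out. For litter 2, the 3 became 0 to 3, and for litter 3, the 9 became 4 to 10, with 1 library left out. For litter 4, the 7 became 12 with library size alone, 12 with no filter, and 1 to 8 with 1 library left out. Apart from the construction of these fits, the cause of these changes was not tested. With 1 library of a litter left out, the lone library is assumed to vary like the others. Depth limits Sfrp2, Rspo3, Wnt11, Lef1, Rnf43 and Wnt2b, which had few counts.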
